A study of Mus musculus with 4 samples.

Results

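The immunoproteasome and peptide loading genes are a group of 9 genes whose products make and deliver peptides for MHC class I molecules: Psmb8, Psmb9, Psmb10, Psme1, Psme2, Tap1, Tap2, Tapbp and Erap1. They were picked by symbol from the 23305 genes with a single entry in the deposited tables, and all 9 were found. Expression was measured by RNA-sequencing of B cells sorted from spleens of female mice, with 2 libraries from WT mice of strain C57BL/6 and 2 from Ets1-/- mice of the mixed background C57BL/6 x 129Sv. The sort took quiescent follicular B cells, that is B220+ CD23-high CD21-low cells without CD80 and without switched immunoglobulin on their surface. The deletion is present in every cell of the mice and not in B cells alone, and the labels do not say whether a library came from 1 mouse or from a pool. Genotype and strain change together between the groups and cannot be told apart, and the ages are not given in the sources used here. Each value is an FPKM, the fragments of a gene divided by its transcript length and by the library's mapped fragments, so levels of different genes can be set side by side. The number of fragments behind a value is unknown. The mutation removes some exons of Ets1, and the FPKM of the whole Ets1 gene was 231 and 275 in WT and 229 and 229.8 in Ets1-/- libraries, so it does not check the labels.

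The proteasome is a barrel-shaped protease that cuts cellular proteins into peptides. Cells of the immune system, and other cells exposed to interferon, exchange its catalytic subunits Psmb5, Psmb6 and Psmb7 for the immunosubunits Psmb8, Psmb9 and Psmb10, and cap the barrel with the PA28 activator built from Psme1 and Psme2. The peptides are pumped into the endoplasmic reticulum by the transporter formed by Tap1 and Tap2. There tapasin (Tapbp) holds class I molecules near the transporter, and the aminopeptidase Erap1 shortens peptides at their front end. Lymphocytes are known to carry this machinery at rest.

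Of the 9 genes, 5 lie on chromosome 17 in the MHC region. In the mm9 genome with the GENCODE M1 annotation, Psmb9 (chr17:34318932-34324697, minus strand), Tap1 (chr17:34324498-34334170), Psmb8 (chr17:34334666-34338399) and Tap2 (chr17:34340472-34353266) follow each other within 34335 bases, and Tapbp is at chr17:34052844-34066235. Psme1 (chr14:56196960-56200366) and Psme2 (chr14:56206278-56209950, minus strand) are neighbours too, while Psmb10 (chr8:108459628-108462292, minus strand) and Erap1 (chr13:74777320-74829983) stand alone.

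Psmb9 and Tap1 are read in opposite directions from a common stretch, which is shown because its neighbouring genes had unlike differences between the genotypes. RefSeq (build GRCm38.p6) gives 225 bases between the starts of Psmb9 and Tap1, at chr17:34187331-34187555. They are printed on the plus strand, so that Psmb9 begins just before the first base and Tap1 just after the last. RefSeq windows from 250 bases before to 50 bases after a start were found for 8 of the 9 genes and searched on both strands for 3 short motifs. These were a strict form of the Ets motif (CCGGAA), the interferon-stimulated response element (GAAANNGAAA) and the gamma-activated sequence (TTCNNNGAA). Interferon-activated factors are known to bind the interferon-stimulated response element, and the gamma-activated sequence is an element known from interferon-gamma-responsive genes. The letters CCGGAA were in 0 of the 8 genes' windows and in 14.9% of all 32851 windows. Shorter or other forms of the Ets motif were not searched for and may be present. The paper mapped Ets1 binding in splenic B cells by ChIP-seq, and its peaks were enriched at genes of antigen processing and presentation. Those peaks were not looked up at the 9 genes, so the letter search does not say whether Ets1 binds them. The interferon element was found at Psme1 and Erap1 and in 3.44% of all windows, and the gamma-activated sequence at Psmb8 and in 8.30% of all windows. These matches are shown with the neighbouring bases, the matched letters in capitals, on the plus strand at chr14:55578493-55578522 (Psme1), chr13:74639839-74639868 (Erap1) and chr17:34198088-34198116 (Psmb8). A match describes letters and not a bound site.
Psmb9-Tap1: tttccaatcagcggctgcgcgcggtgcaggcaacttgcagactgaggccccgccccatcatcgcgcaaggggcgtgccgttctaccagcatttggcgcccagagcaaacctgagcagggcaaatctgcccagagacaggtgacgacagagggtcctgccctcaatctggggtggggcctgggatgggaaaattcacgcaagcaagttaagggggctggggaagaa
Psme1: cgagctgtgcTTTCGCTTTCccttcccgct
Erap1: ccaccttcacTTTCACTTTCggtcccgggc
Psmb8: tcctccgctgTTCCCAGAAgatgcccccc

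The B cell markers were high in every library, with 9 of the 10 listed markers found and summing to 6678 to 6893 FPKM in WT and 5582 to 6623 FPKM in Ets1-/- libraries. Of these 9 markers 0 passed the thresholds for a changed gene in limma, 1 had an unadjusted p under 0.05, and 1 was higher and 2 were lower in both Ets1-/- libraries. Over all genes tested these shares were 1.7%, 13.3%, 19.4% and 22.2%, and they apply to the marker counts that follow. Fcer2a (CD23) was at 488 to 664 FPKM over all libraries. Cr2, which encodes the CD21 used in the sort, was at 102 and 116 FPKM in WT and 65.1 and 30.0 FPKM in Ets1-/- B cells, and limma put the log2 fold change at -1.28 and the adjusted p at 0.216. Cd79a, a chain of the B cell receptor complex, was at 1923 and 2051 FPKM in WT and 1407 and 1639 FPKM in Ets1-/- B cells. Of 9 neutrophil markers 8 were higher in both Ets1-/- libraries and 3 of them, Ngp, Ltf and Camp, passed the thresholds for a changed gene in limma. Their sum was 94.1 to 113 FPKM in WT and 2470.3 and 679 FPKM in Ets1-/- replicates 1 and 2, so that Ets1-/- replicate 1 stood apart. Of the 8 macrophage markers tested 1, Emr1, passed the thresholds, and 2, Emr1 and Lyz2, were higher in both Ets1-/- libraries. The others tested overlapped between the genotypes, with log2 fold changes from -0.16 for Csf1r to 0.37 for C1qb. Emr1 and Lyz2 made up most of the macrophage marker sum in every library. This sum was 32.2 to 66.0 FPKM in WT and 96.0 to 152 FPKM in Ets1-/- libraries. Erythroid markers summed to 3.98 to 6.31 and 27.9 to 64.4 FPKM, and NK cell markers, all 5 lower in both Ets1-/- libraries, to 12.1 to 23.0 and 2.58 to 7.70 FPKM. The sums in WT and Ets1-/- libraries were 107 to 129 and 102 to 131 FPKM for T cell markers, 58.9 to 63.2 and 57.3 to 69.3 FPKM for dendritic cell markers and 342 to 403 and 410 to 442 FPKM for plasma cell markers. Most of the dendritic cell sum was Bst2, at 49.0 to 61.8 FPKM over all libraries. The plasma cell markers went both ways. In both Ets1-/- libraries 3 of them, Sdc1, Prdm1 and Mzb1, were higher and 2, Irf4 and Xbp1, were lower. No marker was at 0 in all libraries. The part of other cells in the results was not tested, and in sorted bulk samples a different mix of cells and a different level per cell cannot be told apart.

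In WT follicular B cells 8 of the 9 genes were among the more abundant transcripts. Psme1 was the highest at 300.2 ± 3.40 FPKM (SD, n = 2), and 2.56% of the 10949 genes tested had a higher WT mean. Below it came Psmb8, Psme2, Psmb9, Tap1, Tapbp, Psmb10 and Tap2, the last at 101 ± 0.984 FPKM (SD, n = 2), and then Erap1 at 16.7 ± 1.48 FPKM (SD, n = 2), with 44.4% of genes above it. In this order the replicate values of Psmb8 and Psme2 overlapped, as did those of Psmb10 and Tap2. In Ets1-/- B cells Psmb10 stood above Tap1 and Tapbp by its mean, but its 2 replicates overlapped theirs.

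All 3 catalytic immunosubunits were higher in both Ets1-/- libraries than in both WT libraries, as were 19.4% of all genes tested, and none passed the thresholds for a changed gene. The thresholds were a difference of 1 or more in either direction on the log2(FPKM + 1) scale, that is 2-fold, and a p of at most 0.05 after Benjamini-Hochberg adjustment of the limma fit over all 10949 genes. By this rule 0 of the 9 genes were called, against 1.7% of all genes tested (186 genes). At an unadjusted limma p under 0.05 there were 2 of the 9, Psme1 and Psmb10, against 13.3% of all genes. The paper used another test, Cuffdiff, with the same thresholds and called more genes, among them Cr2 and Prdm1. Here neither passed, with adjusted p-values from limma of 0.216 for Cr2 and 0.150 for Prdm1. A gene that was not called is therefore not shown to be unchanged.

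Psmb8 (LMP7), the immunosubunit with chymotrypsin-like activity, had an FPKM of 239 and 255 in WT and of 272 and 333 in Ets1-/- replicates 1 and 2. The groups did not overlap, and Ets1-/- replicate 2 stood apart upwards. In limma the log2 fold change was 0.28 with a standard error of 0.18 and an adjusted p of 0.639. Psmb9 (LMP2), which takes the place of Psmb6, was at 187 and 208 FPKM in WT and at 237 and 307 FPKM in Ets1-/- B cells, again without overlap. Here limma gave a log2 fold change of 0.45, a standard error of 0.20 and an adjusted p of 0.432. Psmb10 (MECL-1), the counterpart of Psmb7, was at 108 and 98.8 FPKM in WT and at 127 and 178 FPKM in Ets1-/- B cells. This was the largest difference among the 9 genes, with means 1.48-fold apart and a log2 fold change in limma of 0.54, a standard error of 0.21 and an adjusted p of 0.367. The 95% interval of the Psmb10 change ran from 1.005 to 2.11 times the WT level, so a change above 2-fold lay within it.

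**Figure D1:**
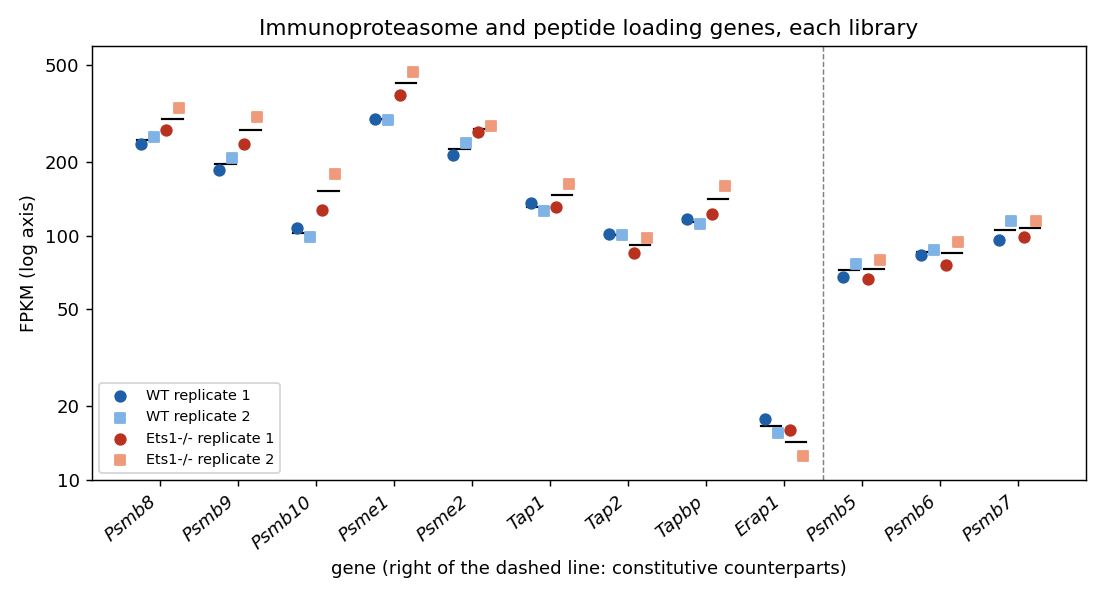
FPKM of the 9 genes and of the constitutive counterparts Psmb5, Psmb6 and Psmb7 in each library, on a log axis, with a bar at each genotype's mean of 2 replicates. The Ets1-/- points of Psmb8, Psmb9, Psmb10, Psme1, Psme2 and Tapbp lie above both WT points, while those of Psmb5, Psmb6 and Psmb7 overlap the WT points.

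The PA28 subunits followed the same pattern. PA28 opens the ends of the proteasome barrel, and its subunits Psme1 (PA28 alpha) and Psme2 (PA28 beta) assemble into 1 ring. Psme1 was at 303 and 298 FPKM in WT and at 378 and 467 FPKM in Ets1-/- B cells, and the means were 1.41-fold apart. The gap between the highest WT and the lowest Ets1-/- value was larger than that between the WT replicates and smaller than that between the Ets1-/- replicates. The log2 fold change of Psme1 was 0.48 (standard error 0.19), and its adjusted p of 0.365 from limma was the lowest of the 9 genes. Psme2 was at 214 and 239 FPKM in WT and at 267 and 282 FPKM in Ets1-/- B cells, without overlap. The log2 fold change was 0.28, with a standard error of 0.16 and an adjusted p of 0.609 in limma. Psme2 is less certain than the others, since 59.3% of the 50-base stretches of its longest annotated coding transcript also occur in its copy Psme2b-ps, and how reads shared between copies were assigned is not given in the sources used here.

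The genes of peptide transport and loading were less alike. Tap1 was at 137 and 126 FPKM in WT and at 132 and 163 FPKM in Ets1-/- B cells, so that Ets1-/- replicate 1 lay between the WT values. The log2 fold change of 0.16 had a standard error of 0.17 and an adjusted p of 0.835 in limma, and it was 0.00 without Ets1-/- replicate 2. Tap2, its partner in the transporter, was at 102 and 100.3 FPKM in WT and at 85.1 and 98.2 FPKM in Ets1-/- B cells. It was the 1 gene of the 9 that was lower in both Ets1-/- libraries, with a log2 fold change in limma of -0.14, a standard error of 0.15 and an adjusted p of 0.823. In GENCODE M1 14.1% of the exon bases of Tap2 also belong to an antisense gene, Gm15821, and since strand use in the counting is not given in the sources used here, reads there cannot be assigned to either gene. Tapbp was at 117 and 111 FPKM in WT and at 123 and 159.5 FPKM in Ets1-/- B cells, and the log2 fold change was 0.29, with a standard error of 0.18 and an adjusted p of 0.639 in limma. Without Ets1-/- replicate 2 the log2 fold change of Tapbp was 0.10.

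Erap1, the least abundant of the genes, was also the one with the lowest fold change. It was at 17.7 and 15.6 FPKM in WT and at 16.0 and 12.5 FPKM in Ets1-/- B cells, and 1 Ets1-/- value lay between the WT values. For Erap1 limma gave a log2 fold change of -0.22, a standard error of 0.17 and an adjusted p of 0.731, and the 95% interval ran from 0.633 to 1.17 times the WT level.

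In all, both Ets1-/- values lay above both WT values for 6 of the 9 genes, a pattern found for 19.4% of the genes tested. They lay below both WT values for 1 of the 9, against 22.2% of the genes tested. The median log2 fold change of the 9 genes was 0.28, with a range from -0.22 to 0.54, and that of all genes was -0.02. The median was 0.15 after quantile normalization, 0.14 without Ets1-/- replicate 2 and 0.43 without Ets1-/- replicate 1, the library with the most neutrophil marker RNA. Without that library the log2 fold changes ran from -0.38 for Erap1 to 0.79 for Psmb10, with Psmb8 at 0.43, Psmb9 at 0.63, Psme1 at 0.64 and Tapbp at 0.48. Without Ets1-/- replicate 2 they ran from -0.24 for Tap2 to 0.33 for Psme1, with Psmb8 at 0.14, Psmb9 at 0.26 and Psmb10 at 0.30. The directions were kept at either size, as they had to be for genes whose groups did not overlap. Ets1-/- replicate 2 was above Ets1-/- replicate 1 for 8 of the 9 genes, by up to 1.40 times for Psmb10, the exception being Erap1. Over all genes tested the median of this ratio was 1.03, and Ets1-/- replicate 2 was the higher for 54.2% of them. Between the WT replicates the ratio of replicate 2 to replicate 1 stayed between 0.882 and 1.12 for the 9 genes. Because 2 samples against 2 cannot give an exact permutation p under 0.333, no permutation test was made on single genes.

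**Figure D2:**
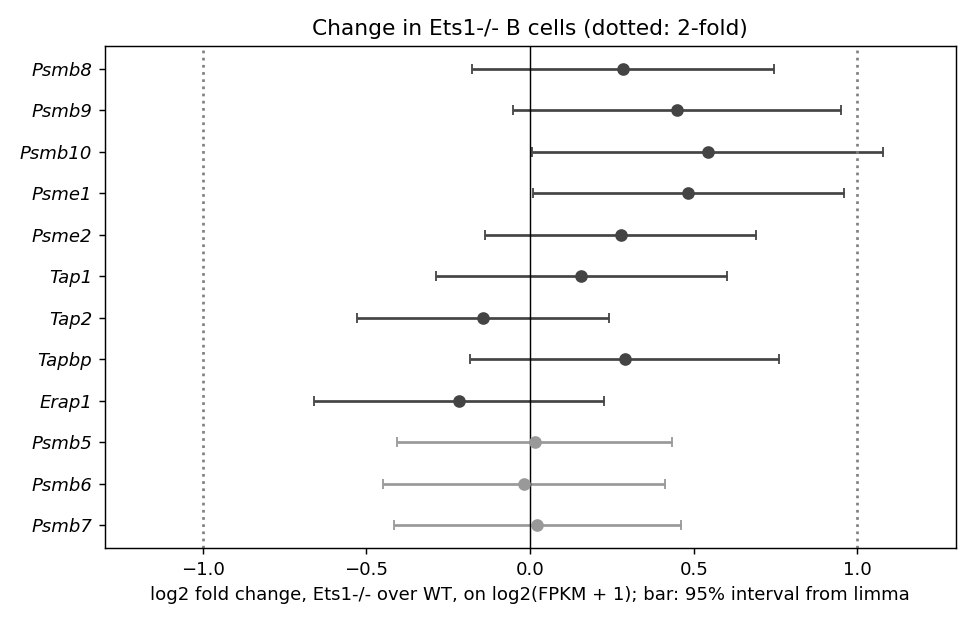
Log2 fold change of FPKM + 1, Ets1-/- over WT, for the 9 genes (dark) and the 3 constitutive counterparts (grey), with 95% intervals from limma, and dotted lines at 2-fold. The intervals of Psmb10 and Psme1 lie just above 0, those of the other genes span 0, and the interval of Psmb10 alone reaches past 2-fold.

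The constitutive counterparts gave a within-library comparison that does not depend on the scaling between libraries. Psmb5, Psmb6 and Psmb7 had log2 fold changes of 0.01, -0.02 and 0.02, with adjusted p-values from limma of 0.992, 0.991 and 0.989, and 95% intervals between 0.733 and 1.38 times the WT level. The FPKM ratio of Psmb8 to Psmb5 was 3.54 and 3.32 in WT and 4.08 and 4.19 in Ets1-/- B cells. The ratio of Psmb9 to Psmb6 was 2.23 and 2.38 in WT and 3.13 and 3.24 in Ets1-/- B cells. For both pairs the Ets1-/- replicates were close to each other, although the FPKM values of Ets1-/- replicate 2 were higher throughout. The ratio of Psmb10 to Psmb7 was 1.11 and 0.862 in WT and 1.28 and 1.55 in Ets1-/- B cells, with a wider spread in both genotypes. All 3 ratios were thus higher in both Ets1-/- libraries, by 1.21-fold for Psmb8, 1.38-fold for Psmb9 and 1.44-fold for Psmb10. Since the counterparts differed little in mean between the genotypes, the ratios largely repeat the differences of the immunosubunits. Of all single genes tested 19.4% were higher in both Ets1-/- libraries, and for other gene pairs the share was not computed. No model was fitted to the ratios, and with 2 libraries per genotype an exact permutation test of a ratio could not give a p under 0.333. With each library left out in turn, the difference in log2 ratio stayed between 0.23 and 0.32 for Psmb8, between 0.42 and 0.52 for Psmb9 and between 0.34 and 0.71 for Psmb10.

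**Figure D3:**
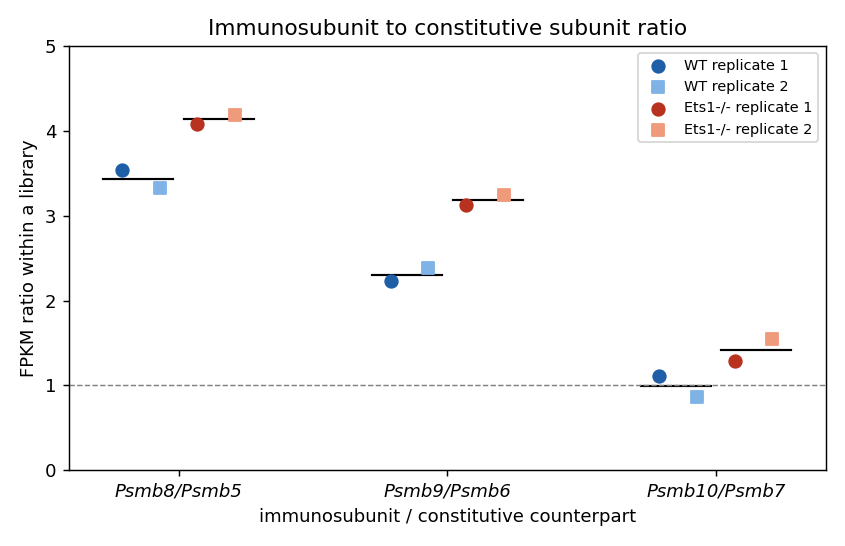
FPKM ratio of each immunosubunit to its constitutive counterpart within each library, with a bar at each genotype's mean of 2 replicates and a dashed line at equal levels. Both Ets1-/- points lie above both WT points for all 3 pairs, from 4.08 against 3.54 for Psmb8/Psmb5 to 1.28 against 1.11 for Psmb10/Psmb7, comparing the closest libraries.

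Other partners among the 9 genes were compared in the same way. The FPKM ratio of Tap1 to Tap2 was 1.34 and 1.26 in WT and 1.55 and 1.66 in Ets1-/- B cells, without overlap. The ratio of Psmb9 to Tap1, the genes read from the common stretch shown above, was 1.37 and 1.65 in WT and 1.80 and 1.88 in Ets1-/- B cells. Psmb9 and Tap1 share 200 exon bases on opposite strands in GENCODE M1, which is 5.48% of the exon bases of Psmb9, and the same limit on strand holds for them. It also holds for Psmb8 and Tap2, where 6.8% and 4.4% of the exon bases also belong to an antisense gene, Gm20496. The ratio of Psme1 to Psme2 overlapped between the genotypes, at 1.41 and 1.24 in WT and 1.41 and 1.66 in Ets1-/- B cells. These pairs were chosen after their values were seen.

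None of the other 77 pathway genes that were listed and tested passed the thresholds in limma, and 4 of the 77, Psmg4, Ifngr1, Jak2 and Rfx5, had an unadjusted p under 0.05. Over all genes tested these shares were 1.7% and 13.3%. The 11 other subunits of the proteasome core had a median log2 fold change of 0.05, from -0.15 for Psma6 to 0.22 for Psma7, and 1 of them was higher and 2 were lower in both Ets1-/- libraries, where the shares over all genes were 19.4% and 22.2%. The 22 subunits of the 19S cap, which unfolds ubiquitin-tagged proteins, had a median of 0.02, from -0.21 for Psmd12 to 0.20 for Psmd9. Among 8 assembly factors and other activators the median was 0.04, with Psmg1 lowest at -0.14. Psmg4, a chaperone of proteasome assembly, was at 51.2 and 59.2 FPKM in WT and 82.4 and 86.5 FPKM in Ets1-/- B cells. This gave a log2 fold change of 0.61, above those of the 9 genes, with a standard error of 0.15 and an adjusted p of 0.155 in limma.

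Farther along the pathway, 6 other loading and folding factors had a median log2 fold change of 0.01, from -0.16 for the chaperone Calr to 0.39 for Tapbpl (TAPBPR), a relative of tapasin that edits the peptides of class I molecules. Tapbpl was at 32.2 and 29.8 FPKM in WT and at 36.0 and 46.4 FPKM in Ets1-/- B cells, with an adjusted p of 0.449 from limma. The 7 other peptidases ran from -0.54 for Tpp2, which trims peptides in the cytosol, to 0.32 for Nrd1, with a median of 0.12. The class I heavy chains H2-K1 and H2-D1, which receive the peptides, had log2 fold changes of -0.06 and 0.05, and their partner B2m had one of 0.12 with a standard error of 0.29. The heavy chains are close copies of each other, so their separate values are uncertain.

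The 18 listed inducers of the pathway had a median log2 fold change of 0.03, with 6 higher and 6 lower in both Ets1-/- libraries, against 19.4% and 22.2% of all genes tested. Irf1, an interferon-responsive activator of these genes, and Irf8 were among the 6 that were higher, with log2 fold changes of 0.35 and 0.42. Nlrc5, the transactivator of class I genes, was at 24.1 and 22.3 FPKM in WT and at 23.8 and 26.5 FPKM in Ets1-/- B cells, with overlap. The highest value was that of Rfx5, a subunit of the complex that binds MHC promoters, at 0.64 (adjusted p = 0.127 from limma). The lowest was that of Ifngr1, the ligand-binding chain of the interferon-gamma receptor, which was at 40.4 and 41.5 FPKM in WT and at 26.3 and 24.8 FPKM in Ets1-/- B cells. In limma its log2 fold change was -0.66 and the adjusted p 0.0969.

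**Figure D4:**
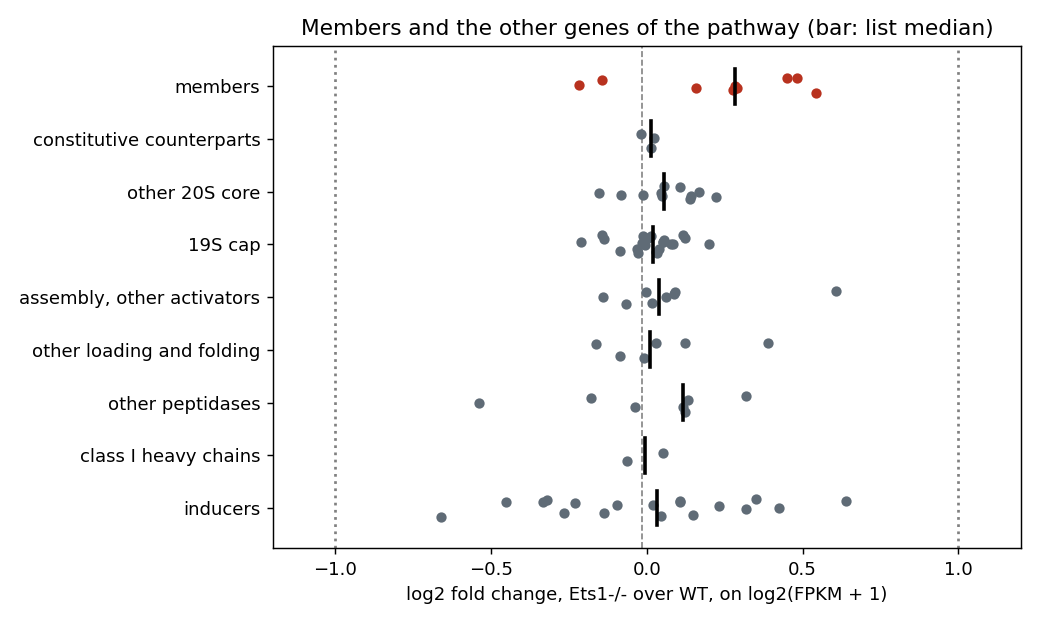
Log2 fold change of FPKM + 1, Ets1-/- over WT, of the 9 genes (red) and of the other pathway genes by list (grey), 1 point per gene, with a bar at each list's median, a dashed line at the median of all genes tested and dotted lines at 2-fold. The 9 genes have a median of 0.28, and the medians of the other lists lie between -0.01 and 0.12.

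The tested genes whose profile over the 4 libraries was closest to that of Psmb10, the gene with the largest difference, were Recql5, Pold2 and Mif4gd. Their Euclidean distances from it, over centred log2(FPKM + 1) values, were 0.0376, 0.0439 and 0.0466, and with 4 libraries this likeness is a description only.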

How the data were processed

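RNA of sorted B cells gave 4 libraries, 2 per genotype. Per the labels and the study's methods, the authors aligned reads to mm9 with TopHat2 2.0.13, estimated expression with Cuffdiff and deposited 1 FPKM value per gene symbol and library. The annotation, the Cuffdiff version and any scaling between libraries are not given in the sources used here. The fit had been planned for counts or FPKM, and the files hold FPKM, so no count test was run.

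Of 23309 entries per file, 4 with repeated symbols were left out. Genes with a mean of at least 1 FPKM in either genotype (10949) were compared with limma 3.58.1 in R 4.3.3 on log2(FPKM + 1), a scale that understates changes of low genes (lmFit, then eBayes with a trend, 2 residual and 3.10 prior degrees of freedom), with Benjamini-Hochberg adjustment over all of them. The script was tested on simulated data with normal noise of equal spread in both genotypes. The only condition to pass was a small median error of the fold change, so it is no check of the calls made here. P-values measure the spread between these samples, described as biological replicates. Tables were made in Python 3.11.15 with pandas 2.3.3. The 9 genes and all lists were chosen with earlier results of these data known. Named are the 9 genes, the constitutive counterparts, the class I chains and B2m, each pathway list's extremes, the 3 genes closest to the member with the largest change, Ets1, and a few others (Irf1, Irf8, Nlrc5, Jak2, Cr2 and markers of B cells and other cells) chosen after their values were seen. Alternatives covered the pseudocount, the filter, scaling, thresholds, variance model, the replicate block and each replicate left out.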

Additional observations from a re-analysis of the deposited data

How the results depend on the processing

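For each of the 9 genes the direction of the log2 fold change was kept under all 13 alternatives that refit it. Much of this was fixed in advance. The filters, the replicate blocks and the variance models left the estimate as it was. Leaving out a library cannot reverse a gene whose groups do not overlap. The number called changed was 0 under every alternative that kept all libraries, including an adjusted p of 0.1 or less, no fold minimum, a pseudocount of 0.1 and upper-quartile scaling. With no library left out, the lowest adjusted p of any of the 9 genes was 0.118 from limma. It came for Psmb10 with the crossed pairing described below. Without Ets1-/- replicate 1 the log2 fold change of Psmb10 was 0.79. Of the other pathway genes 0 were called under any alternative. The count of changed genes among all tested, 186, was 75 with no filter on low values, 106 with a mean FPKM of at least 5, 312 at an adjusted p of 0.1 or less and 305 with robust variance estimation, and the cause was not tested. A replicate block on the number in the labels called 266 genes and 0 of the 9, where the lowest adjusted p was 0.512. The labels give no meaning to that number and same-numbered replicates' deviations had a correlation of -0.21 across genes, so it is not taken as a pairing. With the crossed pairing as a replicate block, chosen after seeing the data, 409 genes were called and 0 of the 9. Leaving out each replicate in turn gave 130 to 144 changed genes in all, and a median of the 9 genes between 0.14 and 0.43. With 1 sample left in a genotype, that sample is assumed to vary like the other genotype. The number of fragments behind the values is unknown, and 2 replicates limit what can be called: the 95% intervals of the 9 genes reach from 0.633-fold to 2.11-fold.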
